A study of Mus musculus with 9 samples.

Results

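The 36 genes described here belong to the lysosome and to autophagy, and were chosen by name as a fixed list of membrane proteins, hydrolases, proton pump subunits and autophagy proteins. Every one of the 36 had a row among the 55401 genes of the deposited table, and all 36 were among the 12660 genes with enough counts to be tested. Livers of 9 male mice were sampled at the left lobe and read by 3' mRNA sequencing, which reads the end of each transcript, with 7409090 to 9911855 counts per library. STAM + Atglistatin mice (n = 3, replicates 4 to 6) were injected under the skin with 200 µg of streptozotocin, a toxin of insulin-producing cells, when 2 days old, and from 4 weeks of age ate for 4 weeks a high-fat diet that carried Atglistatin, an inhibitor of adipose triglyceride lipase (ATGL, the product of Pnpla2). STAM mice (n = 3, replicates 1 to 3) had the same injection and the same diet without the inhibitor and serve as a diabetic model of fatty liver. Chow mice (n = 3, replicates 7 to 9) had neither streptozotocin nor Atglistatin and ate chow. The inhibitor was given in the food, so it was not limited to the liver, and no chow mice with Atglistatin are among these groups.

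Lysosomes are acid compartments in which hydrolases break down proteins, glycans and lipids. Autophagy brings cytoplasm, organelles and lipid droplets to them inside a double membrane, the autophagosome. In hepatocytes, fat of lipid droplets can be freed by cytosolic lipases such as ATGL or, in lipophagy, by lysosomal acid lipase after the droplet has been engulfed. The transcription factor TFEB raises many genes of both systems by binding a sequence that holds the E-box CACGTG. All values below are transcript levels. They do not measure lysosomal enzyme activity or the flow of material through autophagy.

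Promoter windows of 300 bases, from 250 before to 50 after the annotated start, were read from RefSeq on build GRCm38.p6 for 30 of the 36 genes. Not in that table were Npc1, Ctsb, Ctsh, Atp6v1h, Becn1 and Map1lc3a. The E-box CACGTG, which reads the same on both strands, lay in a window of 13 of the 30 genes, against 8.09% of the 27025 genes with windows. The longer palindrome TCACGTGA, which contains it, lay in windows of 5 of the 30 (Mcoln1, Ctsa, Ctsd, Atp6v0d1 and Atp6v1a), against 1.12% of all genes. Windows of Tfeb, Lipa, Sqstm1 and Map1lc3b did not hold these letters. A match is a description of the letters and shows no binding. The stretches with several matches or with the longer palindrome are shown here, with that of Bnip3, the one member that passed in edgeR below. Each is given 5′ to 3′ on the gene's strand with the matches in capitals.
Lamp1, chr8:13159080-13159160, plus strand: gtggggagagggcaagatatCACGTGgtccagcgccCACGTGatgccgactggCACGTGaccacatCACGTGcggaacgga
Mcoln1, chr8:3500428-3500500, plus strand: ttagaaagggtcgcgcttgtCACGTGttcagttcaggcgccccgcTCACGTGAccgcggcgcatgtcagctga
Ctsa, chr2:164833758-164833786, plus strand: tgTCACGTGAtgcagatgcTCACGTGAcc
Ctsd, chr7:142387899-142387946, minus strand: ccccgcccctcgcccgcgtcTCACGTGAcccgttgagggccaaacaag
Atp6v0d1, chr8:105566050-105566079, minus strand: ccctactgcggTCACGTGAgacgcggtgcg
Atp6v1a, chr16:44139364-44139411, minus strand: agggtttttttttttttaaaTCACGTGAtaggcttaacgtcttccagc
Bnip3, chr7:138909589-138909634, minus strand: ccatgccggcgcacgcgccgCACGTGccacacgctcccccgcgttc

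**Figure D1:**
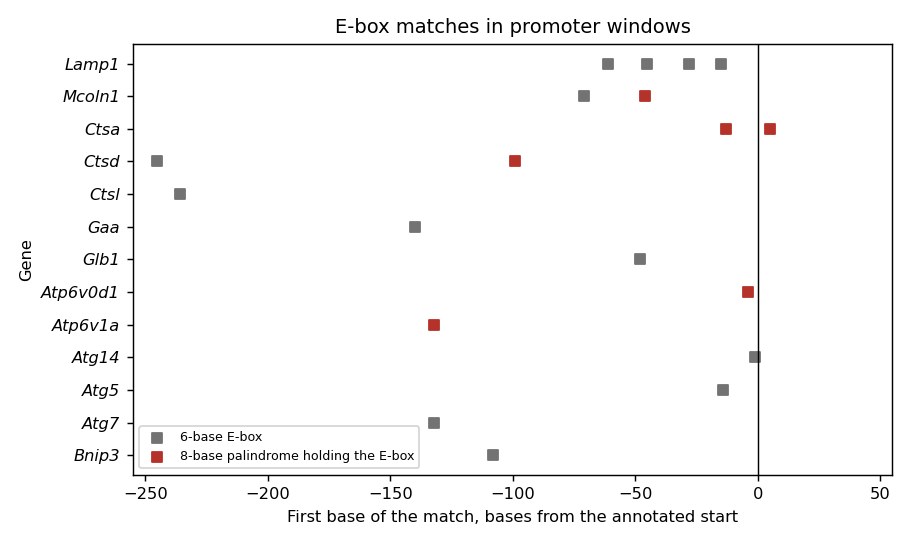
Position of each E-box match in the promoter windows of the 13 genes that held one. The horizontal axis gives the first base of the match in bases from the annotated start (negative before it). Grey squares are the 6-base E-box and red squares the 8-base palindrome that contains it. Lamp1 has 4 matches before its start and Ctsa has the longer palindrome on both sides of its start.

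Of these 36 genes Bnip3 alone passed in edgeR, as higher in STAM + Atglistatin than in chow, and DESeq2 and limma-voom also called Lipa, as higher in STAM + Atglistatin than in STAM. Levels are counts per 1000000 counts (CPM), scaled with TMM, a scaling that sets the bulk of genes equal between libraries, and fold changes are on the log2 scale from edgeR. In STAM against chow, 0 of the 36 genes passed at an adjusted p under 0.05, while 3.94% of all tested genes did. STAM + Atglistatin against STAM also gave 0 of 36, against 1.79% of all tested genes (1.04% higher and 0.742% lower). For STAM + Atglistatin against chow 1 of 36 passed, Bnip3, which rose, against 4.08% of all tested genes (2.1% higher and 1.97% lower). The median log2 fold change of the 36 was -0.11 in STAM against chow, 0.06 in STAM + Atglistatin against STAM and -0.05 in STAM + Atglistatin against chow, where the median of all tested genes was 0.00 in each. With library totals in place of TMM the medians of the 36 were -0.02, 0.06 and 0.03, and those of all tested genes moved alike, to 0.09, -0.01 and 0.08.

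At an unadjusted p under 0.05, 2 of the 36 were higher and 3 lower in STAM against chow, 2 higher and 2 lower in STAM + Atglistatin against STAM, and 1 higher and 4 lower in STAM + Atglistatin against chow. Of all tested genes, 7.24% were higher and 7.31% lower in STAM against chow, 5.09% and 5.06% in STAM + Atglistatin against STAM, and 7.47% and 7.36% in STAM + Atglistatin against chow. As shares of the 36, the members came to 5.56% and 8.33%, 5.56% and 5.56%, and 2.78% and 11.1% in the same order. By groups that do not overlap, 1 member was higher and 5 were lower in each STAM mouse than in each chow mouse, against 10.6% and 10.2% of all tested genes. The higher one was Atg7, and the lower ones were Ctsa, Ctsz, Lipa, Gaa and Atp6v0d1. Each STAM + Atglistatin mouse exceeded each STAM mouse for 4 members (Ctsd, Lipa, Atp6v1a and Map1lc3a) and was below each for 2 (Hexa and Atg7), against 8.58% and 8.45% of all tested genes. Set against chow, 1 member (Bnip3) was higher and 2 (Ctsa and Wipi1) were lower in each STAM + Atglistatin mouse, against 9.6% and 9.03% of all tested genes. DESeq2 and limma-voom with sample weights also gave 0 calls in STAM against chow, and each gave 1, Lipa, in STAM + Atglistatin against STAM. Of all 12660 tested genes, DESeq2 called 691 in STAM against chow and 309 in STAM + Atglistatin against STAM. For limma-voom these were 729 and 293. In the authors' deposited table no member had an adjusted p under 0.05 between STAM and chow, where 627 entries of the whole table did. Lipa did for STAM + Atglistatin over STAM, with 282 entries of the whole table. Bnip3 did for STAM + Atglistatin over chow, with 625 entries.

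The precision is given by the 95% intervals of the log2 fold changes, taken over the 35 members with a mean of at least 1 CPM. In STAM against chow, 33 of 35 intervals lay within a 2-fold difference either way, and 22 within 1.5-fold. For STAM + Atglistatin against STAM, 34 lay within 2-fold and 24 within 1.5-fold, and for STAM + Atglistatin against chow 31 and 22. The intervals that reached past 2-fold were those of Psap in all 3 comparisons, Tfeb in both comparisons with chow, and Mcoln1 and Bnip3 in STAM + Atglistatin against chow. Differences smaller than these intervals cannot be told from 0 with 3 mice per group.

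**Figure D2:**
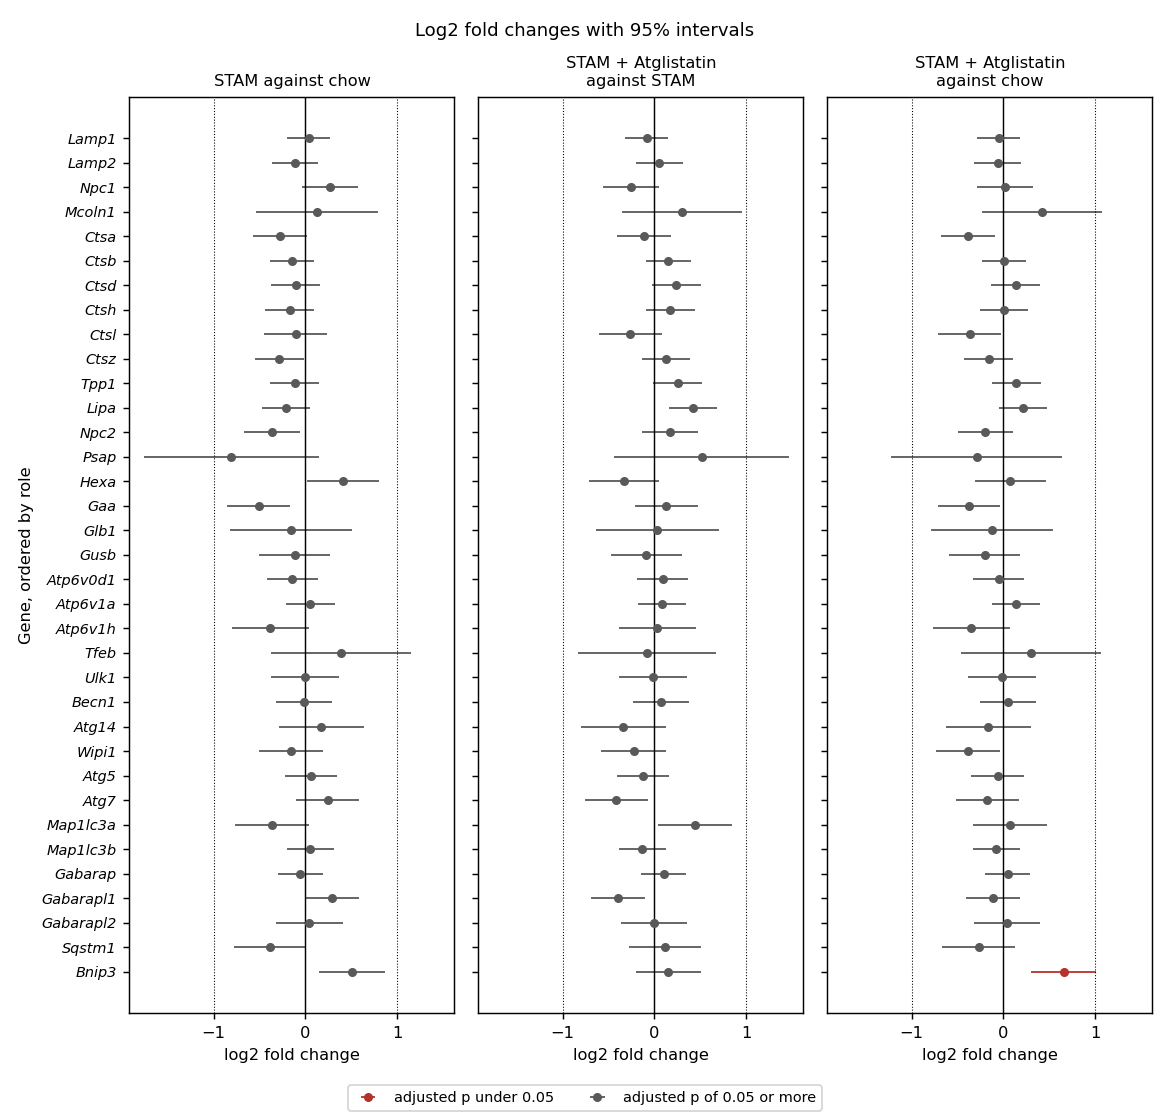
Log2 fold change (horizontal axis) of the 35 members with a mean of at least 1 CPM, in role order from lysosomal membrane proteins at the top to cargo receptors at the bottom, for the 3 comparisons. Points are edgeR estimates from 3 mice per group and bars their 95% intervals, with dotted lines at a 2-fold difference. Bnip3 in STAM + Atglistatin against chow, in red, is the one point with an adjusted p under 0.05.

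Among the libraries, chow replicate 7 differed from chow replicates 8 and 9. The summed level of 11 markers of recruited macrophages was 163, 133 and 109 CPM in STAM + Atglistatin, 128, 142 and 112 CPM in STAM, and 221, 93.3 and 132 CPM in chow, the first chow value being replicate 7. Gpnmb, a marker of lipid-laden macrophages, had 9 to 30 counts in the STAM + Atglistatin libraries, 27 to 113 in the STAM libraries, and 99, 0 and 1 in chow replicates 7, 8 and 9. Mmp12, a macrophage elastase, had 92 counts in chow replicate 7 and 0 in both other chow libraries. Lyz2 held 123 CPM of the sum of replicate 7. Gpnmb, Trem2 and Itgax were not highest in that library, and Ccr2 was at its lowest there, at 2.16 CPM. Chow replicate 7 also had the highest sum of 7 stellate cell markers, 703 CPM against 374 to 508 CPM in the other 8 libraries. Of it, Dcn, Col3a1 and Col1a1 held 465, 98.4 and 70.5 CPM, while Lrat, Reln and Pdgfrb were not highest in that library. Its sum of 4 cholangiocyte markers, 55.2 CPM against 27.7 to 37.3 CPM, was the highest as well. Sox9 held 50.5 CPM of this, and Krt19, Krt7 and Epcam were not highest there. None of the Kupffer cell and recruited macrophage markers was at 0 counts in all libraries, and none passed in any comparison. The 11 Kupffer cell markers summed to 483 to 655 CPM, 505 to 604 CPM and 439 to 588 CPM in STAM + Atglistatin, STAM and chow. For 6 sinusoidal endothelial markers the sums were 367 to 448 CPM, 354 to 372 CPM and 381 to 414 CPM. Of these, Lyve1 alone passed, 1.81-fold higher in STAM than in chow (edgeR adjusted p = 0.0343). In that comparison 2 of the 6 were higher and 4 lower, among them Clec4g at 0.74-fold (edgeR adjusted p = 0.104). Hepatocyte markers (8 genes, led by Alb) summed to 79903 to 80955 CPM in STAM + Atglistatin, 56859 to 65548 CPM in STAM and 99962 to 112018 CPM in chow. Of these 8 genes, 6 had a log2 fold change below 0 in STAM against chow, and 4 of them passed. In STAM + Atglistatin against chow 7 were below 0, and 5 of them passed. In STAM + Atglistatin against STAM Alb rose (edgeR adjusted p = 0.00159) and Apob fell (edgeR adjusted p = 0.00467). The part of these 8 genes in the members' values was not tested. Lymphocyte, neutrophil and adipocyte lists summed to at most 6.85 CPM, 9.19 CPM and 4.22 CPM in any library, with the adipocyte marker Lep at 0 counts in all. Macrophages are rich in lysosomes, and in bulk RNA fewer cells of a type and less RNA per cell cannot be told apart.

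**Figure D3:**
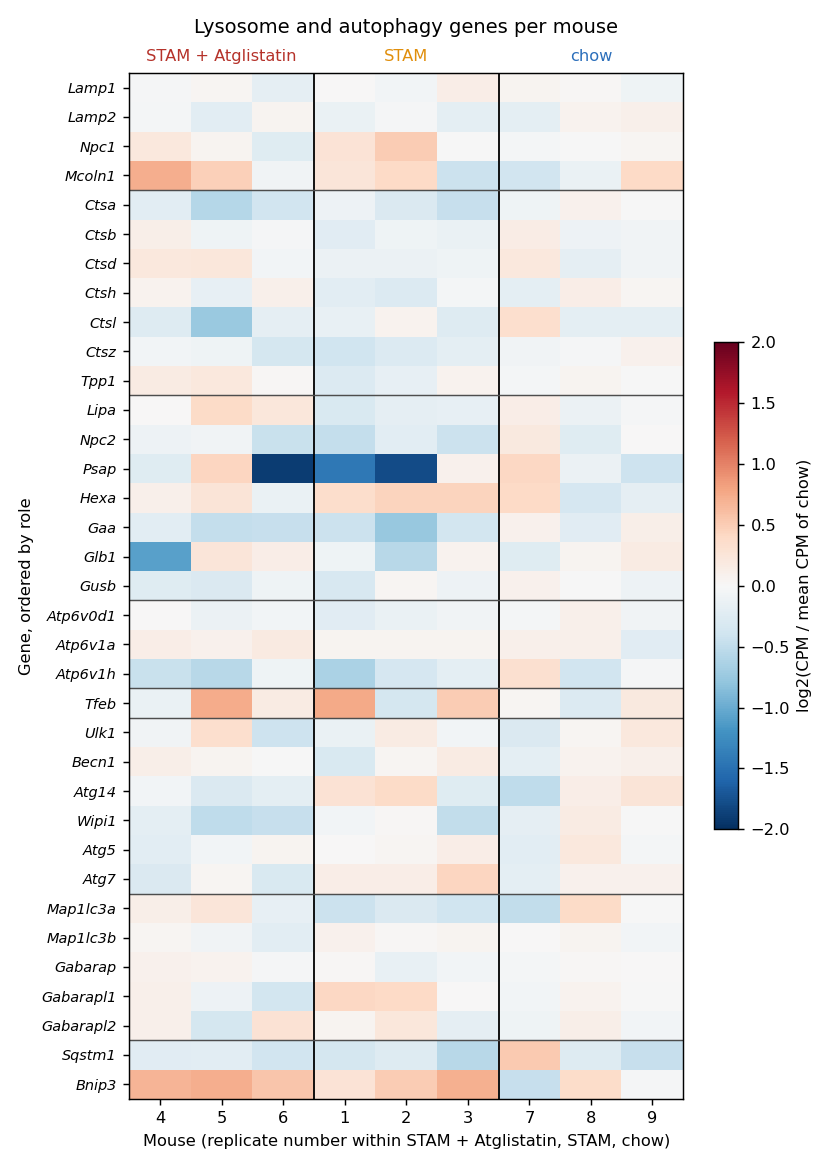
Level of the 35 members with a mean of at least 1 CPM (rows, by role, with lines between roles) in each mouse (columns), as log2 of CPM over the mean of the chow mice. Red is above and blue below the chow mean. Most cells are pale. Psap is darkest blue in STAM + Atglistatin replicate 6 and STAM replicates 1 and 2. Bnip3 is above the chow mean in all 6 mice given streptozotocin and high-fat diet, but also in chow replicate 8. That mouse had 203 CPM, against 191 CPM in STAM replicate 1.

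Membrane proteins of the lysosome were measured by Lamp1 and Lamp2, its main coat glycoproteins, by Npc1, which moves cholesterol out of it, and by the calcium channel Mcoln1. Lamp1 was at 642, 669.9 and 572 CPM in STAM + Atglistatin, 652, 629 and 717 CPM in STAM and 674, 663 and 614 CPM in chow mice, with the 3 groups overlapping. Its log2 fold change was 0.03 ± 0.11 (SE, 95% interval -0.20 to 0.27, edgeR adjusted p = 0.94) in STAM against chow, -0.09 ± 0.11 (SE, 95% interval -0.32 to 0.15, edgeR adjusted p = 0.89) in STAM + Atglistatin against STAM and -0.05 ± 0.11 (SE, 95% interval -0.29 to 0.18, edgeR adjusted p = 0.903) in STAM + Atglistatin against chow. With library totals in place of TMM the last value was 0.03, beside a median of all tested genes of 0.08, and none was distinguishable from 0. Lamp2 averaged 461 ± 40.5 CPM in STAM + Atglistatin, 444 ± 28.9 CPM in STAM and 481 ± 53.9 CPM in chow (SD, n = 3 each). Npc1 was at 179, 161 and 130.5 CPM in STAM + Atglistatin, 186, 220.5 and 154 CPM in STAM and 151, 154 and 158 CPM in chow, so that its chow mice lay close together and inside the range of STAM + Atglistatin. Mcoln1, at 10.7 ± 2.86 CPM, 8.72 ± 2.41 CPM and 8.06 ± 2.31 CPM in STAM + Atglistatin, STAM and chow, was among the least abundant members by 3' counts.

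Proteases were the most abundant role by 3' counts, at a sum over 7 genes of 1961 ± 140.1 CPM in STAM + Atglistatin, 1895 ± 66.9 CPM in STAM and 2091 ± 192 CPM in chow (SD, n = 3 each). They were cathepsin A (Ctsa, a carboxypeptidase that also protects beta-galactosidase), the cysteine cathepsins Ctsb, Ctsh, Ctsl and Ctsz, the aspartic protease Ctsd, and tripeptidyl peptidase Tpp1. All 7 had a log2 fold change below 0 in STAM against chow (median -0.15), as had 6346 of the 12660 tested genes, and the sign of all 7 was the same with DESeq2 size factors and with library totals (median -0.06). None passed (the lowest edgeR adjusted p was 0.303 for Ctsz), and 2 of the 7 had STAM values all below chow. Ctsa was at 77.7, 60.4 and 68.9 CPM in STAM + Atglistatin, 84.0, 73.9 and 65.4 CPM in STAM and 84.8, 95.7 and 89.98 CPM in chow, so that chow lay above all 6 other mice. Ctsz, at 93.9, 103 and 108 CPM in STAM, was also below each chow mouse (118, 121 and 131 CPM), while STAM + Atglistatin (119, 116 and 97.0 CPM) overlapped both. Ctsd was at 395, 400.2 and 327 CPM in STAM + Atglistatin mice, above each of the STAM mice (314, 315 and 323 CPM), and chow (397, 301 and 326 CPM) overlapped both groups.

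Cathepsin L was set apart by single mice. Ctsl was at 530.1, 379 and 561 CPM in STAM + Atglistatin, 571, 663 and 528 CPM in STAM and 795, 549.6 and 552 CPM in chow. Its highest value was that of chow replicate 7, and its lowest that of STAM + Atglistatin replicate 5. Chow replicate 7 also had the highest recruited macrophage, stellate cell and cholangiocyte sums, the first being mostly Lyz2 and the last mostly Sox9. The part of these cell types in its Ctsl level was not tested. Ctsb (417 to 544 CPM over the 9 mice), Ctsh (252 to 334 CPM) and Tpp1 (89.3 to 125 CPM) had narrow ranges.

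Enzymes of lipid and glycan breakdown include the gene nearest to lipophagy, Lipa, which encodes lysosomal acid lipase, the enzyme that cleaves triglycerides and cholesteryl esters in the lysosome. Lipa (chromosome 19, 34492318 to 34527474, minus strand, GRCm38) was at 289, 373 and 337 CPM in STAM + Atglistatin, 233, 255 and 256 CPM in STAM and 314, 266 and 283 CPM in chow mice. Every STAM + Atglistatin mouse was above every STAM mouse, and every STAM mouse was below every chow mouse, while STAM + Atglistatin and chow overlapped. The log2 fold change was 0.43 ± 0.12 (SE, 95% interval 0.16 to 0.69, edgeR adjusted p = 0.123) in STAM + Atglistatin against STAM, a 1.34-fold higher level that did not pass in edgeR. Of 15 alternatives it passed in 2, DESeq2 (adjusted p = 0.0402) and limma-voom (adjusted p = 0.0342). It failed in 13, each library left out among them, with an adjusted p of up to 0.476. The authors' deposited table, under column names that DESeq2 writes, gives an adjusted p of 0.0315. In STAM against chow the log2 fold change was -0.21 ± 0.12 (SE, 95% interval -0.48 to 0.05, edgeR adjusted p = 0.465), and in STAM + Atglistatin against chow 0.21 ± 0.12 (SE, 95% interval -0.05 to 0.47, edgeR adjusted p = 0.47).

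**Figure D4:**
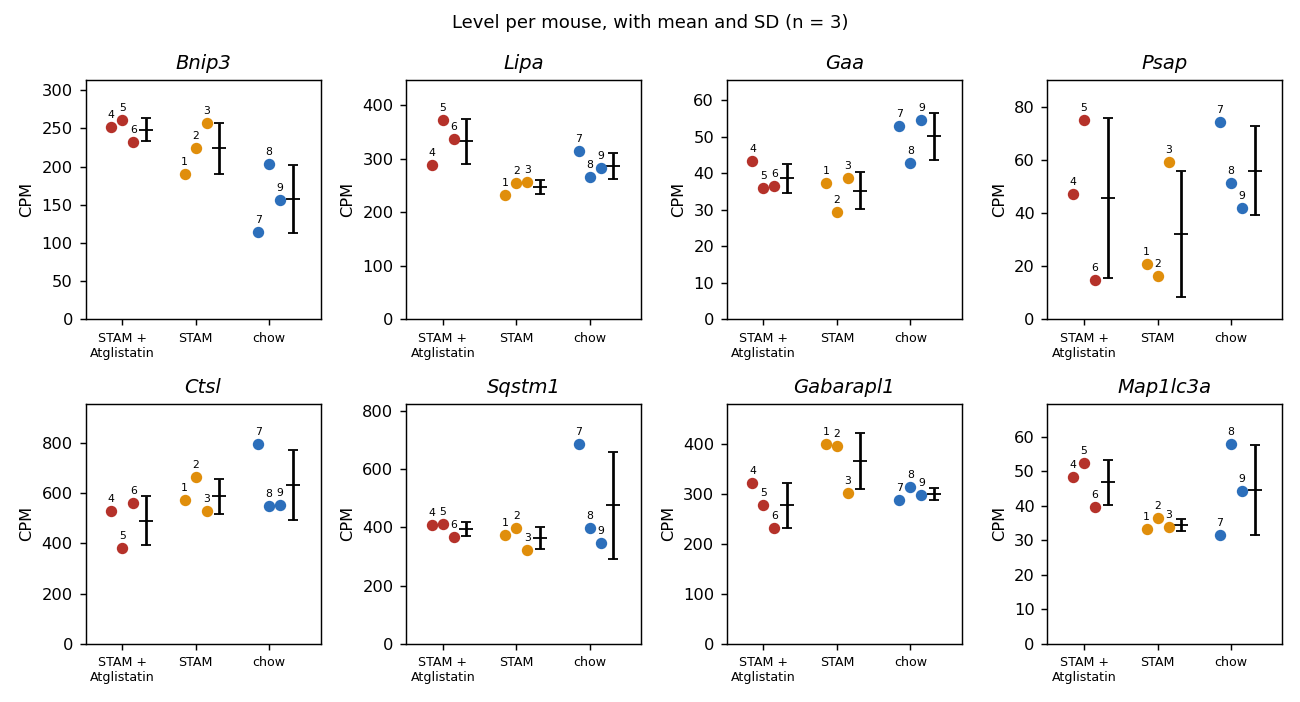
Level in CPM of 8 members in each mouse (points, labelled with the replicate number), with the mean and SD of the 3 mice of each group in black. Lipa is higher in each STAM + Atglistatin mouse than in each STAM mouse, Bnip3 is higher in each STAM + Atglistatin mouse than in each chow mouse, and Sqstm1 and Ctsl each have chow replicate 7 above all other mice.

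Gaa, the acid alpha-glucosidase that degrades glycogen in the lysosome, was at 43.2, 35.95 and 36.5 CPM in STAM + Atglistatin, 37.4, 29.5 and 38.8 CPM in STAM and 53.0, 42.8 and 54.7 CPM in chow. STAM lay wholly below chow, with a mean of 35.2 ± 5.004 CPM in STAM and 50.2 ± 6.44 CPM in chow (SD, n = 3 each), but the difference did not pass (edgeR adjusted p = 0.104). Hexa, a subunit of beta-hexosaminidase, was at 45.7, 48.8 and 49.2 CPM in STAM and 47.6, 28.6 and 31.6 CPM in chow, where replicate 7 held the high value. It passed in STAM against chow, as higher, without that library, and in no other of the 15 alternatives run. STAM + Atglistatin mice, at 38.3, 43.0 and 32.6 CPM, were all below STAM. Npc2, which hands cholesterol to Npc1, averaged 129.9 ± 18.02 CPM in STAM + Atglistatin, 115 ± 11.5 CPM in STAM and 149 ± 22.1 CPM in chow, with groups that overlapped. Glb1, the lysosomal beta-galactosidase (5.12 to 12.8 CPM over the 9 mice), and Gusb, beta-glucuronidase (17.4 to 23.1 CPM), were low and overlapped in every comparison.

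Psap, which encodes prosaposin, the precursor of the saposins that aid sphingolipid breakdown, varied most among the members with a mean of at least 1 CPM. It was at 47.2, 75.3 and 15.03 CPM in STAM + Atglistatin, 20.9, 16.2 and 59.5 CPM in STAM and 74.6, 51.6 and 42.0 CPM in chow. The highest of the 9 mice was 5.01-fold above the lowest, against at most 2.51-fold for the other 34. Both groups on the high-fat diet held low and high mice side by side, so the groups overlapped, and the SD was 65.8% of the mean in STAM + Atglistatin, 73.8% in STAM and 29.9% in chow. Psap passed in STAM against chow, as lower, with no low-count filter alone among the alternatives.

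The proton pump that acidifies lysosomes was represented by 3 subunits. Atp6v1a, the catalytic subunit of the cytosolic part, was at 114, 110.0 and 117 CPM in STAM + Atglistatin, 107, 108 and 108 CPM in STAM and 111, 111 and 88.8 CPM in chow. All 3 STAM + Atglistatin mice were above STAM, by a difference that did not pass (edgeR adjusted p = 0.913). Atp6v0d1, of the membrane part, ranged over 49.9 to 62.3 CPM, and Atp6v1h, a regulatory subunit, over 23.996 to 46.6 CPM with its highest value in chow replicate 7.

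Tfeb, the regulator itself, was scarce, with 508 counts over all 9 libraries. It was at 4.92, 9.01 and 6.05 CPM in STAM + Atglistatin, 9.18, 4.25 and 7.69 CPM in STAM and 5.56, 4.46 and 6.21 CPM in chow, and the 3 groups overlapped. Its log2 fold change was 0.38 ± 0.36 (SE, 95% interval -0.38 to 1.15, edgeR adjusted p = 0.716) in STAM against chow, -0.08 ± 0.36 (SE, 95% interval -0.83 to 0.67, edgeR adjusted p = 0.974) in STAM + Atglistatin against STAM and 0.30 ± 0.36 (SE, 95% interval -0.46 to 1.07, edgeR adjusted p = 0.787) in STAM + Atglistatin against chow. With these intervals a 2-fold higher level of Tfeb against chow could not be told from none. TFEB is known to be controlled mainly by phosphorylation and its place in the cell, which transcript counts do not show.

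No gene of the machinery that starts autophagy and extends its membrane passed in any comparison. It was measured by the kinase Ulk1, by Becn1 and Atg14 of the lipid kinase complex, by Wipi1, which binds the lipid it makes, by the scramblase Atg9a, and by Atg5 and Atg7, which attach the Atg8 proteins to membranes. Ulk1 averaged 85.2 ± 22.1 CPM in STAM + Atglistatin, 86.1 ± 9.54 CPM in STAM and 86.3 ± 14.6 CPM in chow (SD, n = 3 each), and Becn1 69.6 ± 3.08 CPM, 66.3 ± 10.7 CPM and 67.1 ± 7.48 CPM in the same groups. Atg7 was at 30.2, 37.7 and 29.7 CPM in STAM + Atglistatin, 40.5, 40.1 and 49.8 CPM in STAM and 32.01, 39.2 and 39.2 CPM in chow, so that STAM lay above all 6 other mice, though no comparison passed (edgeR adjusted p = 0.562 against chow, and 0.334 for STAM + Atglistatin against STAM). Wipi1 was at 44.6, 36.1 and 37.1 CPM in STAM + Atglistatin mice, below each chow mouse (45.1, 57.7 and 51.1 CPM), with STAM (49.3, 52.3 and 36.3 CPM) overlapping both. Atg5 (77.6 to 104 CPM) and Atg14 (16.3 to 29.99 CPM) overlapped in every comparison. Atg9a had 2, 12 and 16 counts in STAM + Atglistatin, 4, 9 and 10 in STAM and 9, 4 and 3 in chow, too few to compare. A 3' end of Atg9a matches a transcript of Gm29253 at 100% identity over all 300 bases compared. Gm29253 had 0 counts over the libraries, and how such reads were counted is not known.

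Atg8 proteins coat the growing membrane and hold cargo receptors on it. Map1lc3b, the LC3 gene most used as an autophagy marker, was at 106, 98.2 and 89.2 CPM in STAM + Atglistatin, 109.9, 105 and 107 CPM in STAM and 103, 107 and 99.4 CPM in chow. Its log2 fold change was 0.05 ± 0.12 (SE, 95% interval -0.20 to 0.31, edgeR adjusted p = 0.91) in STAM against chow, -0.13 ± 0.12 (SE, 95% interval -0.38 to 0.12, edgeR adjusted p = 0.82) in STAM + Atglistatin against STAM and -0.08 ± 0.12 (SE, 95% interval -0.33 to 0.18, edgeR adjusted p = 0.856) in STAM + Atglistatin against chow, the last being 0.01 with library totals, beside a median of all tested genes of 0.08. Part of a Map1lc3b 3' end matches transcripts of 32 other genes over 101 to 112 bases, of which Fads6 had the most counts, 6952 over the 9 libraries against 8170 for Map1lc3b, and how such reads were counted is not known. Gabarap (119.7 to 140.4 CPM over the 9 mice) and Gabarapl2 (32.7 to 50.7 CPM) did not pass in any comparison. Map1lc3a was at 48.4, 52.5 and 39.8 CPM in STAM + Atglistatin mice, all above STAM (33.3, 36.5 and 33.8 CPM), while chow spread over 31.6, 58.0 and 44.3 CPM (edgeR adjusted p = 0.412 for STAM + Atglistatin against STAM). Gabarapl1, the most abundant Atg8 transcript here by 3' counts, was at 323, 278 and 233 CPM in STAM + Atglistatin, 401, 396 and 302 CPM in STAM and 289, 313 and 298 CPM in chow, with STAM replicates 1 and 2 above all other mice (edgeR adjusted p = 0.247 for STAM + Atglistatin against STAM).

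Of the cargo receptors, Sqstm1 encodes p62, which links ubiquitinated cargo to LC3. It was at 409, 409.9 and 367 CPM in STAM + Atglistatin, 375, 396 and 323 CPM in STAM and 686, 396 and 346 CPM in chow. Chow replicate 7 was above the other 8 mice, which overlapped between the groups. The log2 fold change was -0.39 ± 0.19 (SE, 95% interval -0.78 to 0.01, edgeR adjusted p = 0.357) in STAM against chow, and -0.03 without that library. For STAM + Atglistatin against STAM it was 0.12 ± 0.19 (SE, 95% interval -0.28 to 0.51, edgeR adjusted p = 0.915). Against chow, STAM + Atglistatin had -0.27 ± 0.19 (SE, 95% interval -0.66 to 0.12, edgeR adjusted p = 0.566), which turned to 0.09 without chow replicate 7. That library also had the highest recruited macrophage, stellate cell and cholangiocyte sums, the first being mostly Lyz2 and the last mostly Sox9. The part of those cells in its Sqstm1 level was not tested.

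Bnip3, a receptor in the outer mitochondrial membrane that binds LC3 and marks mitochondria for autophagy, was the one member that passed in edgeR. Bnip3 (chromosome 7, 138890836 to 138909519, minus strand, GRCm38) was at 252, 262 and 232 CPM in STAM + Atglistatin, 191, 224 and 258 CPM in STAM and 114, 203 and 156 CPM in chow mice. All 3 STAM + Atglistatin mice were above all 3 chow mice, while STAM overlapped both groups. Bnip3 rose 1.58-fold in STAM + Atglistatin against chow, a log2 fold change of 0.66 ± 0.17 (SE, 95% interval 0.30 to 1.01, edgeR adjusted p = 0.0343), with means of 249 ± 15.2 CPM in STAM + Atglistatin and 158 ± 44.3 CPM in chow (SD, n = 3 each). In STAM against chow the log2 fold change was 0.51 ± 0.17 (edgeR adjusted p = 0.125), and in STAM + Atglistatin against STAM 0.15 ± 0.17 (edgeR adjusted p = 0.857). Both comparisons with chow share the chow mice. The lowest value was that of chow replicate 7, and without it the log2 fold change was 0.47 (edgeR adjusted p = 0.0665). The call was also lost without any one STAM + Atglistatin mouse, without STAM replicate 2, without chow replicate 9, or with only the 2 groups fitted, so that the adjusted p over 15 alternatives ranged from 0.000155 to 0.144. The authors' deposited table gives a log2 fold change of 0.60 with an adjusted p of 0.00551 for the same comparison. For Bnip3, 4 other annotated genes have transcripts that match its last 300 bases at 95% identity or more over 201 to 203 bases, and these had at most 1 count in all libraries together.

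The other genes of these systems were described from 6 lists of 139 tested genes. In STAM against chow, 1 rose and 3 fell, against 1.95% higher and 1.99% lower among all tested genes. Between STAM + Atglistatin and STAM 0 passed in edgeR, with 4 higher and 9 lower of the 139 at an unadjusted p under 0.05, where 5.09% and 5.06% of all tested genes were. DESeq2 and limma-voom each called 1 there, as higher, which was Ctsc, the cathepsin that activates granule proteases, at 98.7, 83.2 and 92.6 CPM in STAM + Atglistatin, 63.6, 64.1 and 67.9 CPM in STAM and 92.0, 85.9 and 85.3 CPM in chow. For STAM + Atglistatin against chow 2 rose and 2 fell in edgeR, against 2.1% higher and 1.97% lower among all tested genes. Over all 12660 tested genes, DESeq2 called 176 higher and 133 lower in STAM + Atglistatin against STAM, and limma-voom 180 and 113. Both tools called more than edgeR in the comparisons with chow, in these lists and over all tested genes. Of all tested genes, DESeq2 called 357 higher and 334 lower in STAM against chow, and limma-voom 324 and 405. For STAM + Atglistatin against chow DESeq2 called 364 and 318 of all tested genes, and limma-voom 284 and 297. In STAM against chow DESeq2 had 2 higher and 5 lower and limma-voom 3 higher and 5 lower, adding Ctsc, Asah1 (acid ceramidase) and Mitf (a relative of TFEB) in both tools and Plin2, a coat protein of lipid droplets, in limma-voom. For STAM + Atglistatin against chow DESeq2 had 3 higher and 3 lower, adding Plin2 and Sesn3, and limma-voom 4 higher and 2 lower, adding Plin2 and Cd63. The 6 lists held 14 tested proton pump subunits outside the members, 12 cargo receptors, 26 further genes of the autophagy machinery, 29 regulators such as Mtor, Tfe3 and Foxo1, 12 genes of lipid droplets and 46 other lysosomal genes. Medians of the lists were at log2 fold changes of -0.06 to 0.11 in STAM against chow and -0.07 to 0.04 in STAM + Atglistatin against STAM. Medians for STAM + Atglistatin against chow ran between -0.16, for the other lysosomal genes, and 0.08. Single genes ranged wider, over -1.42 to 1.19, -1.05 to 0.58 and -1.90 to 0.92 in the same order.

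Gm2a, the activator protein that presents ganglioside to beta-hexosaminidase A, fell in both comparisons with chow. It was at 217, 158 and 158 CPM in STAM + Atglistatin, 143, 144 and 164 CPM in STAM and 281, 271 and 298 CPM in chow, and all chow mice were above all 6 others. The log2 fold change was -0.91 ± 0.14 (SE, 95% interval -1.20 to -0.63, edgeR adjusted p = 0.000443) in STAM against chow and -0.68 ± 0.14 (SE, 95% interval -0.96 to -0.39, edgeR adjusted p = 0.00625) in STAM + Atglistatin against chow, the second call being lost without STAM + Atglistatin replicate 5 (adjusted p = 0.0529). Between STAM + Atglistatin and STAM it was 0.24 ± 0.14 (SE, 95% interval -0.05 to 0.52, edgeR adjusted p = 0.612).

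Atg16l2, a relative of the Atg16l1 that places LC3 on membranes, also fell in both, at 5.82, 7.25 and 6.92 CPM in STAM + Atglistatin, 5.42, 6.97 and 5.41 CPM in STAM and 19.7, 12.3 and 15.7 CPM in chow. Its log2 fold change was -1.42 ± 0.27 (SE, 95% interval -1.99 to -0.85, edgeR adjusted p = 0.0041) in STAM against chow and -1.25 ± 0.27 (SE, 95% interval -1.82 to -0.69, edgeR adjusted p = 0.0106) in STAM + Atglistatin against chow, the second lost without STAM + Atglistatin replicate 4 (adjusted p = 0.0546). Retreg1, a receptor for autophagy of the endoplasmic reticulum, fell in STAM against chow, at 33.9, 46.3 and 29.6 CPM in STAM and 62.4, 63.5 and 49.8 CPM in chow. The groups did not overlap, and the log2 fold change was -0.68 ± 0.17 (SE, 95% interval -1.04 to -0.32, edgeR adjusted p = 0.0306). This call was lost in 6 of 15 alternatives, among them without chow replicate 7 or 8 and without STAM replicate 1 or 3. STAM + Atglistatin mice, at 43.8, 38.2 and 41.9 CPM, overlapped STAM. They were all below chow, by a difference that did not pass (edgeR adjusted p = 0.132).

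Cd63, a membrane protein of late endosomes and lysosomes that immune cells also carry, rose in STAM against chow, at 30.7, 34.1 and 20.6 CPM in STAM and 21.6, 8.20 and 7.09 CPM in chow. STAM + Atglistatin mice, at 18.8, 21.9 and 26.2 CPM, overlapped both groups. The lowest STAM mouse lay below chow replicate 7, and the log2 fold change was 1.19 ± 0.32 (SE, 95% interval 0.51 to 1.87, edgeR adjusted p = 0.0474). It failed in 9 of 15 alternatives, and without chow replicate 7, its highest chow library, the log2 fold change was 1.89 (edgeR adjusted p = 6.38e-05). Atp6v1d, a subunit of the pump's central stalk, rose against chow to 102, 92.2 and 104 CPM in STAM + Atglistatin, against 70.9, 74.6 and 64.6 CPM in chow. This was a log2 fold change of 0.50 ± 0.13 (SE, 95% interval 0.23 to 0.77, edgeR adjusted p = 0.031). STAM mice, at 71.8, 73.6 and 82.2 CPM, were all below STAM + Atglistatin and overlapped chow. Between STAM + Atglistatin and STAM the log2 fold change was 0.39 ± 0.13 (SE, edgeR adjusted p = 0.189). For STAM against chow it was 0.11 ± 0.13 (SE, edgeR adjusted p = 0.777). Aga, aspartylglucosaminidase, rose to 34.9, 38.6 and 36.2 CPM in STAM + Atglistatin, against 23.7, 21.9 and 23.5 CPM in chow, a log2 fold change of 0.67 ± 0.17 (SE, 95% interval 0.31 to 1.02, edgeR adjusted p = 0.0297). Neither gene overlapped between these groups. The Atp6v1d call was lost in 7 of 15 alternatives and the Aga call in 5, in each case without any one STAM + Atglistatin mouse and without chow replicate 8 or 9.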

How the data were processed

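Livers of 9 mice were read with the QuantSeq 3' kit, per the labels' protocols, and reads were aligned with STAR to GRCm38, per the submitters' processing notes. Which program counted them, with which annotation and strand setting, was not given in the sources used here. Raw counts per gene and library were deposited in 1 table, beside the authors' sums over the 3 libraries of a group, which were not used. The table also holds the authors' log2 fold changes and adjusted p-values, under column names that DESeq2 writes, from which members are quoted. The authors' mean scaled counts and standard errors (held as a score) were deposited but not used. Groups follow the sample titles and the study's design text, since the treatment labels of the chow and STAM samples contradict both. Libraries were taken as separate mice from their numbered titles. No label says so outright, and p-values measure only the spread between these samples.

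The 55401 genes, leaving out 7 ribosomal RNA entries (0.260 to 0.529% of counts), went into edgeR 4.0.16 under R 4.3.3: filterByExpr, TMM, 1 fit to all 9 libraries with group means, quasi-likelihood tests and Benjamini-Hochberg adjustment over 12660 genes. A standard error is the log2 fold change over the root of its F, and intervals use the fit's degrees of freedom. The common biological coefficient of variation was 0.236. Simulated data were used to check the fit. Alternatives were DESeq2 1.42.0 size factors or Wald test, library totals, no low-count filter, limma 3.58.1 voom with sample weights, fits to 2 groups, and leaving out each library. For the wider lists these were chosen after seeing the data. Log2 fold changes are given for members that passed, and in every comparison for Tfeb, Lamp1, Lipa, Sqstm1 and Map1lc3b; other members are given by level. Members and lists were chosen with earlier results of these data known.

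Positions are from GENCODE M21. By position, 13 members overlap a gene with counts on the other strand (Lamp1, Npc1, Ctsa, Ctsb, Ctsz, Hexa, Atp6v1h, Becn1, Atg9a, Map1lc3b, Gabarapl1, Sqstm1 and Bnip3) and 2 on the same strand (Glb1 and Atg7), and how such reads were counted is not known. The precision of low genes is limited by counting error at 7409090 to 9911855 counts per library.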

Additional observations from a re-analysis of the deposited data

How the results depend on the processing

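No paired analysis was possible because the groups share no replicate numbers. The 0 members called in STAM against chow became 1 with library totals (Bnip3, higher), 2 with no low-count filter (Bnip3 higher, Psap lower), and 0 to 1 when a library was left out (Hexa without chow replicate 7, Bnip3 without chow replicate 8). In STAM + Atglistatin against STAM, 0 became 1 (Lipa) with DESeq2 and with limma-voom, and stayed 0 when any library was left out. In STAM + Atglistatin against chow, the 1 call became 0 with only the 2 groups fitted and was 0 to 1 over libraries left out. For all tested genes, calls numbered 291 to 724 when a library was left out of STAM against chow (499 with all), 131 to 332 in STAM + Atglistatin against STAM (226 with all; 392 with no low-count filter), and 309 to 757 in STAM + Atglistatin against chow (516 with all). Over libraries left out, the highest number in each comparison came without chow replicate 7. The cause was not tested. Of log2 fold changes near 0, some turned their sign. With library totals, STAM + Atglistatin against chow gave 0.0294 for Lamp1 and 0.0068 for Map1lc3b. Over libraries left out, Lamp1 ranged from -0.0221 to 0.0736 in STAM against chow and from -0.102 to 0.0103 in STAM + Atglistatin against chow, Tfeb from -0.363 to 0.155 in STAM + Atglistatin against STAM, and Sqstm1 from -0.456 to 0.0883 in STAM + Atglistatin against chow, the last value without chow replicate 7. Library totals moved the median of all tested genes by under 0.1 in each comparison, to 0.09, -0.01 and 0.08. The Lamp1 and Map1lc3b values with library totals lie beside that 0.08. Counts of Atg9a, at most 16 in a library, were too few to compare, and a 3' end of it matches Gm29253 over 300 bases.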
